A study of Mus musculus with 10 samples.

Results

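The 10 hippocampal libraries of a mouse Tshr series were divided into 4 that were high and 6 that were low in transcripts of the thalamus and habenula. The thalamus is the structure that lies directly beneath the hippocampus. The 2 classes were compared across all genes with genotype as a covariate. The high libraries were Tshr-/- libraries 1 and 2 and wild-type libraries 2 and 5. The low libraries were Tshr-/- libraries 3, 4 and 5 and wild-type libraries 1, 3 and 4. The libraries of each class were chosen by their measured levels of Zic1, Zic4, Calb2 and other thalamic genes. The contrast is therefore not one of genotype, and differences between high and low libraries are given as a description without p-values. All mice were C57BL/6 and 3 months old, 5 libraries lacked the thyroid-stimulating hormone receptor (Tshr-/-) and 5 were wild type, and each genotype had 2 high and 3 low libraries. The sources used here give neither the allele that removes Tshr, nor whether a library is a single mouse, nor whether the mutants received thyroid hormone. The mRNA libraries are labelled as biological replicates, and the spread between them is the error used throughout.

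The thalamus relays sensory and motor signals to the cortex through glutamatergic neurons that load their vesicles with the transporter VGLUT2 (Slc17a6), whereas hippocampal and cortical principal neurons use mostly VGLUT1 (Slc17a7). Thalamic and habenular neurons arise from the diencephalon under transcription factors such as Tcf7l2, Gbx2 and Lef1, and hippocampal neurons arise from the telencephalon under factors such as Emx1, Emx2 and Lhx2. The hippocampus lies against the thalamus below, the choroid plexus of the lateral ventricle and the neocortex above.

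The files held 23899650 to 32397612 reads per low library and 25030011 to 33529811 per high library, and mitochondrial genes took 3.18% to 4.20% of reads in the low and 3.91% to 4.503% in the high libraries. Tshr itself was near the limit of detection, with 0, 0, 0, 5 and 2 reads in Tshr-/- libraries 1 to 5 and 9, 12, 7, 2 and 2 reads in wild-type libraries 1 to 5. Tshr-/- library 4 stood apart in choroid plexus transcripts. Its transthyretin (Ttr) level was 2189 FPKM (fragments scaled for gene length and library depth), against at most 84.1 FPKM in the other libraries. Tshr-/- library 5 was the highest in neocortical transcripts, with a summed level of 144 FPKM over the 11 genes of that list against 45.5 to 90.7 FPKM in the other libraries.

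The promoters of Shox2, Tnnt1 and Tcf7l2 are shown because these were the 3 protein-coding genes with the largest differences between the classes among genes with a mean of at least 1 FPKM. Each is the RefSeq window of 250 bases before to 50 bases after the start of the gene in GRCm38.p6 (the mm10 assembly), 5′ to 3′ on the gene's strand. Capitals mark CTTTGA or its reverse complement TCAAAG, the core bound by the TCF/LEF family, to which Tcf7l2 belongs.
Shox2, chr3:66981722-66982021, minus strand: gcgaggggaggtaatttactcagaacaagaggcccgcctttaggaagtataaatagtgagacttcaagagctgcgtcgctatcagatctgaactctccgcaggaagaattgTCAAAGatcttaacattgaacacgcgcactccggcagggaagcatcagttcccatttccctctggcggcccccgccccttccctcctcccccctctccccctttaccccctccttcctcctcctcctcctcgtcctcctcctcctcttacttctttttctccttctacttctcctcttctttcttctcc
Tnnt1, chr7:4515926-4516225, minus strand: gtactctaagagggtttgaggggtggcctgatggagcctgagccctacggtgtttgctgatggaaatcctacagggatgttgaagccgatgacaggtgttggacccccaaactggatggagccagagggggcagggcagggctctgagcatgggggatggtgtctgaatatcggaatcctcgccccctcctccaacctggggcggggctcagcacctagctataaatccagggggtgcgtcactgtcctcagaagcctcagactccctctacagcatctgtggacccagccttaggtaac
Tcf7l2, chr19:55741560-55741859, plus strand: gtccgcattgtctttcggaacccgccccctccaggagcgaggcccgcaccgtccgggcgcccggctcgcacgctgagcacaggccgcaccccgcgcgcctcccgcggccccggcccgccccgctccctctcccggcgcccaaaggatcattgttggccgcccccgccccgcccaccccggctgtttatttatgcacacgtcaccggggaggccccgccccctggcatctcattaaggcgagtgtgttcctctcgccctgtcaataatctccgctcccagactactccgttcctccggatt
The Shox2 window holds 1 such match and the Tnnt1 and Tcf7l2 windows hold 0, and a second RefSeq start of Tcf7l2 (chr19:55895071-55895370) also holds 0. Among the promoters of the thalamus genes whose high and low libraries did not overlap, 2 of 23 windows (8.70%) held the core on either strand, against 5257 of all 32851 windows (16.0%). A match of 6 letters describes the sequence alone and is not a binding site.

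Of the 3 genes that mark the classes, only Calb2 separated them completely. Zic1, a zinc-finger transcription factor of dorsal midline and diencephalic neurons, lies on chromosome 9 from 91358058 to 91365810 (mm10, minus strand). Its level in the high libraries was 16.0 and 31.1 FPKM in Tshr-/- libraries 1 and 2 and 9.35 and 14.6 FPKM in wild-type libraries 2 and 5. In the low libraries it was 2.58, 13.5 and 4.42 FPKM in Tshr-/- libraries 3, 4 and 5 and 1.67, 1.88 and 1.49 FPKM in wild-type libraries 1, 3 and 4. Thus Tshr-/- library 4, classed as low, was above wild-type library 2, classed as high, while within each genotype the classes did not overlap for Zic1.

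Zic4, a relative that overlaps Zic1 on the opposite strand (chromosome 9, 91362413 to 91389348), was much scarcer. It reached 0.518, 1.76, 0.348 and 0.664 FPKM in the high libraries, in the order just used. The low libraries had 0.224, 1.37, 0.566, 0.130, 0.152 and 0.117 FPKM, so that Tshr-/- libraries 4 and 5 overlapped the high class. Reads from the shared part of the 2 Zic genes cannot be told apart where strand is not used in counting, and the library kit named in the labels does not mark strand. Calb2, which encodes the calcium-binding protein calretinin (chromosome 8, 110137502 to 110168210), had 26.0, 68.9, 21.6 and 19.1 FPKM in the high libraries. It had 16.4, 17.2, 10.7, 8.86, 9.80 and 2.47 FPKM in the low libraries, all below the high class, with Tshr-/- library 2 far above the rest.

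**Figure D1:**
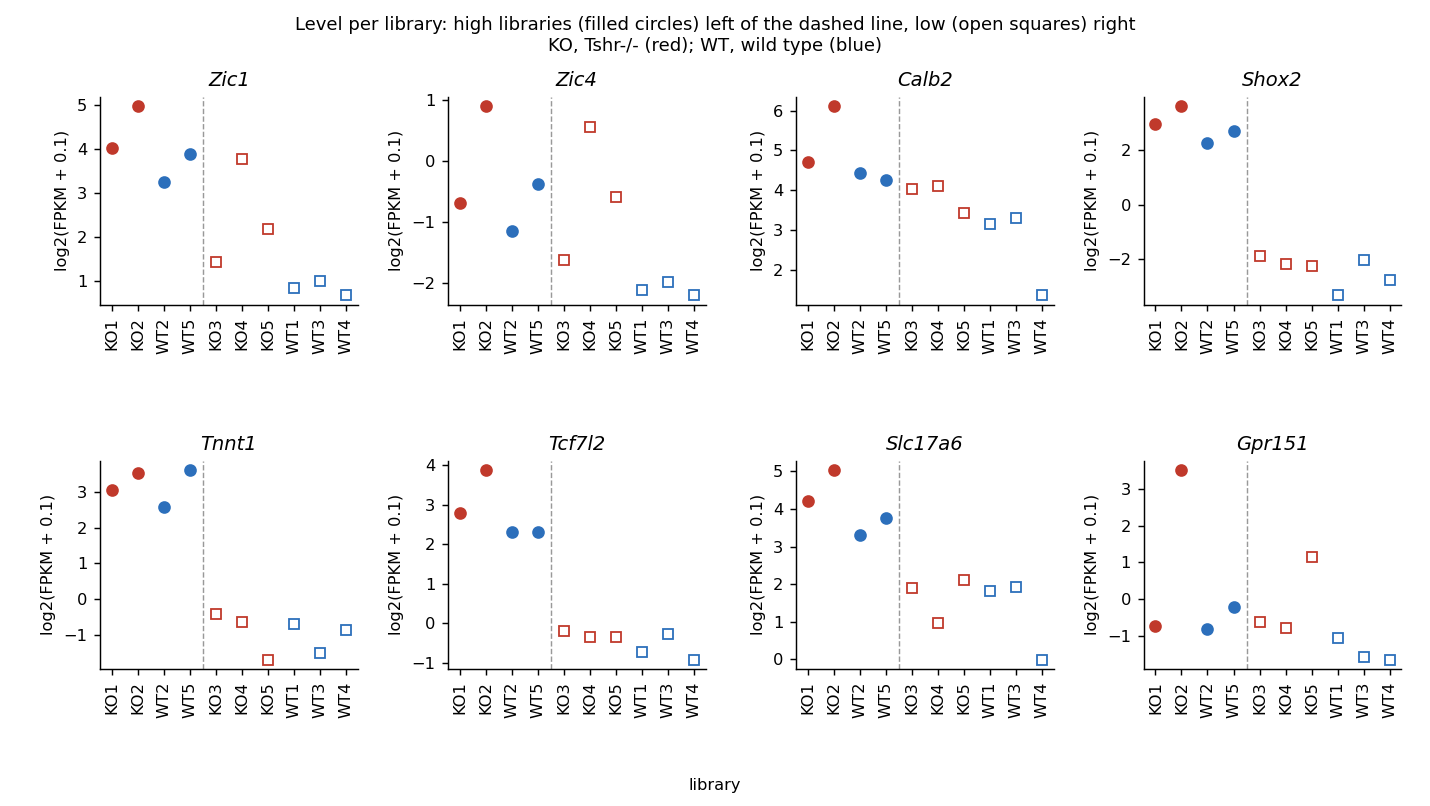
Levels of 8 genes in each of the 10 libraries, on a log2(FPKM + 0.1) axis, with the 4 high libraries (filled circles) left of the dashed line and the 6 low libraries (open squares) right of it, Tshr-/- in red and wild type in blue. Shox2, Tnnt1, Tcf7l2 and Slc17a6 split into 2 separate bands, Zic1 and Zic4 overlap through Tshr-/- library 4, and Gpr151 of the habenula is high in Tshr-/- library 2.

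The wider thalamus list separated the classes without overlap. The mean of its 19 tested genes, relative to the average over all libraries, was 1.37, 1.95, 0.55 and 1.08 on the log2 scale in the 4 high libraries and between -1.08 and -0.62 in the 6 low libraries. Wild-type library 2 was the high library nearest to the boundary, at 0.55, and Tshr-/- library 3 was the nearest low library, at -0.62. Tshr-/- library 4 lay at -0.81 on this measure, although its Zic1 and Zic4 levels were high.

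Across 15471 genes with a mean level of at least 0.5 FPKM, limma's fit placed 719 genes higher and 829 lower in the high libraries at an adjusted p below 0.05, which is 4.65% and 5.36% of the genes tested. Such genes are called higher or lower below, as a description of a split that these same libraries defined. The shares of 4.65% and 5.36% over all tested genes are the background for every count of called genes in a list. In 718 genes (4.64%) every high library lay above every low library, and in 432 genes (2.79%) every high library lay below. The called counts, 719 and 829, fell to 287 and 321 without Tshr-/- library 2, 327 and 343 without Tshr-/- library 1, 332 and 325 without wild-type library 2, 424 and 471 without Tshr-/- library 3, 453 and 473 without wild-type library 1, and 459 and 596 without wild-type library 5. The genes called higher spread over a wide range, with a median log2 difference of 0.36 and 94 genes at 1 or more. The genes called lower moved less, with a median of -0.33 and 8 genes beyond -1. They were also the more abundant genes, with a median level of 16.9 FPKM against 6.54 FPKM for the genes called higher.

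The homeobox gene Shox2 (chromosome 3, 66971727 to 66981771), a transcription factor of thalamic neurons, showed the largest difference. Its level was 7.77, 12.2, 4.77 and 6.46 FPKM in the high libraries (mean 7.79 ± 3.17, SD, n = 4). The low libraries had 0.172, 0.124, 0.109, 0, 0.145 and 0.0487 FPKM (mean 0.0998 ± 0.0640, SD, n = 6). The classes were far apart, by 5.30 ± 0.255 (SE) in log2(FPKM + 0.1), a measure that compresses differences of genes this low. Rsrc1, which overlaps Shox2 on the opposite strand, had a mean of 4.19 FPKM in the high and 3.00 FPKM in the low libraries.

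Tnnt1, the slow-muscle troponin T that also marks thalamic neurons (chromosome 7, 4504570 to 4516382), had 8.24, 11.4, 5.83 and 11.99 FPKM in the high libraries. It had 0.655, 0.542, 0.213, 0.518, 0.257 and 0.457 FPKM in the low libraries, a difference of 4.14 ± 0.291. Here wild-type library 5 was as high as Tshr-/- library 2, unlike most thalamus genes. Tcf7l2, the Wnt effector that holds thalamic and habenular neurons in their identity (chromosome 19, 55741810 to 55933654), had 6.86, 14.5, 4.83 and 4.83 FPKM in the high libraries. Its 6 low libraries held 0.769, 0.684, 0.686, 0.504, 0.733 and 0.429 FPKM, and the difference was 3.29 ± 0.224.

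The other 7 of the 10 protein-coding genes with the largest positive differences, among those with a mean of at least 1 FPKM, differed by 2.47 to 2.73. Slitrk6, a transmembrane protein of synapses, differed by 2.73 ± 0.268, the actin-binding Synpo2 by 2.71 ± 0.197, and Rab37, a small GTPase of secretory vesicles, by 2.71 ± 0.167. Slc17a6, which encodes VGLUT2, had 18.4, 32.6, 9.77 and 13.4 FPKM in the high and 0.896 to 4.24 FPKM in the low libraries, a difference of 2.62 ± 0.402. Its low libraries were themselves uneven, with wild-type library 4 and Tshr-/- library 4 at the bottom. Ramp3, a partner of calcitonin-family receptors, differed by 2.55 ± 0.317, with Tshr-/- library 5 at 12.98 FPKM and the other low libraries at 2.15 to 4.65 FPKM. Klk6, a serine protease made by oligodendrocytes, differed by 2.48 ± 0.243, and Rgs16, a brake on G-protein signalling, by 2.47 ± 0.219.

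Within the thalamus list, 19 of 19 tested genes were higher in the high libraries, 16 were called and the same number did not overlap, with a median difference of 1.93 beside -0.01 over all tested genes. This list names what the classes were chosen for, so its counts support nothing further. The transcription factors Gbx2, Rora and Lef1 differed by 3.54 ± 0.482, 1.93 ± 0.180 and 1.45 ± 0.162. Gbx2 was close to silent in the low libraries, at 0 to 0.227 FPKM, against 0.492 to 5.32 FPKM in the high libraries. Protein kinase C delta (Prkcd), abundant in relay nuclei, had 44.5, 54.5, 21.8 and 39.3 FPKM in the high libraries and 5.28 to 14.8 FPKM in the low, a difference of 2.24 ± 0.276. Smaller differences were seen in genes that were well detected in the low libraries too: netrin-G1 (Ntng1) differed by 1.39 ± 0.150 and the RNA-editing enzyme Adarb1 by 0.86 ± 0.104.

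The 3 tested thalamus genes that were not called were Cacna1g, Cbln1 and Lhx9. The T-type calcium channel Cacna1g was already at 6.58 to 10.6 FPKM in the low libraries and differed by 0.50 ± 0.161. The synapse organizer Cbln1 differed by 0.95 ± 0.460, with 10.7 FPKM in Tshr-/- library 5, above both wild-type high libraries at 2.13 and 2.33 FPKM. The homeobox gene Lhx9 had 3.42 FPKM in Tshr-/- library 2 but 0.951 to 1.93 FPKM in all others. Foxp2, the list member below the filter on low values, had 0.890, 1.46, 0.231 and 0.361 FPKM in the high libraries and 0.552 FPKM in the low Tshr-/- library 5.

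The high libraries were not equally high. For the 16 called thalamus genes, each library's level above the mean of the low libraries of its own genotype was expressed as a percentage of that in Tshr-/- library 2. The median over the genes was 66.7% in Tshr-/- library 1 (range 33.8% to 77.9%), 56.3% in wild-type library 5 (25.3% to 106%) and 31.2% in wild-type library 2 (8.93% to 49.5%). Both Tshr-/- high libraries therefore carried more thalamic transcript than either wild-type high library, by this median. In bulk RNA, fewer cells of a type and less RNA per cell cannot be told apart, here and in all that follows.

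The habenula borders the thalamus on its dorsal side and shares Tcf7l2 with it. The classes were described as high or low in transcripts of both, but the habenula genes did not follow the split. All 6 tested habenula genes had higher fitted means in the high libraries, with a median difference of 0.68, but none was called and none was free of overlap. Gpr151, a receptor of habenular neurons, had 0.501, 11.2, 0.474 and 0.762 FPKM in the high libraries. It had 0.558, 0.480, 2.12, 0.380, 0.240 and 0.222 FPKM in the low libraries, so the level was raised in Tshr-/- library 2 and, less so, in the low Tshr-/- library 5. The neuropeptide gene Tac2 showed the same order, with 15.1 FPKM in Tshr-/- library 2, 6.32 FPKM in Tshr-/- library 5 and 1.29 to 2.73 FPKM in the other 8 libraries. The habenular transcription factor Pou4f1, below the filter, had 3.58 FPKM in Tshr-/- library 2, 0.657 FPKM in Tshr-/- library 5 and at most 0.115 FPKM elsewhere. Among the high libraries these 3 habenula genes were raised in Tshr-/- library 2 alone.

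Markers of the midbrain, hindbrain and hypothalamus were scarce in both classes. None of the 15 midbrain and hindbrain genes passed the filter, and their summed level was 1.71 to 3.05 FPKM in the high and 0.761 to 1.99 FPKM in the low libraries. Gata3, a transcription factor of inhibitory neurons in the midbrain and caudal forebrain, was at 0.445, 0.828, 0.531 and 0.404 FPKM in the high libraries and at most 0.0376 FPKM in the low. Of the 18 hypothalamus genes 5 were tested, 3 were higher and 2 lower, and none was called. Trh, which encodes thyrotropin-releasing hormone, had 1.48, 1.37, 1.91 and 0.348 FPKM in the high and 0.192, 0.459, 1.10, 0.142, 0.0945 and 0.233 FPKM in the low libraries. It was higher without overlap within each genotype, by 1.39 in Tshr-/- and 1.93 in wild type, but over both genotypes wild-type library 5 lay inside the low range. Kiss1 was listed at 0 in every library, and the orexin gene Hcrt did not exceed 0.375 FPKM in any.

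**Figure D2:**
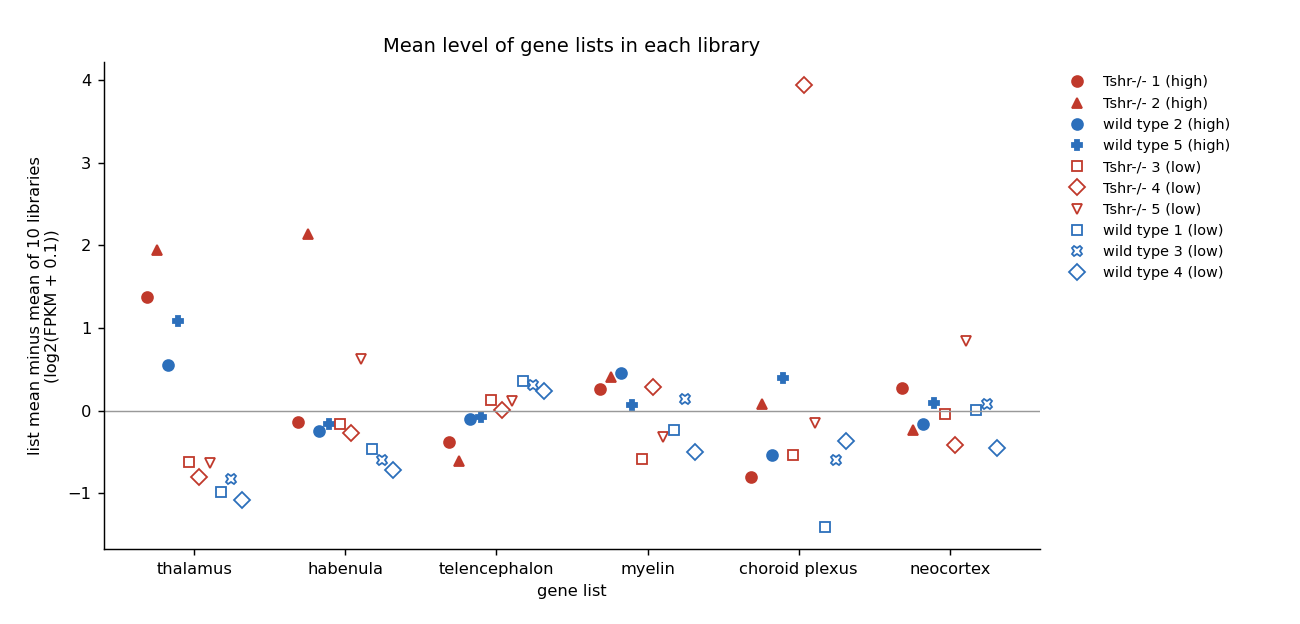
Mean level of the tested genes of 6 lists in each library, minus the average over the 10 libraries, in log2(FPKM + 0.1); filled symbols are high and open symbols low libraries, red Tshr-/- and blue wild type. The thalamus list parts the classes at 0.55 against -0.62, the telencephalon list is lower in all 4 high libraries, and Tshr-/- library 4 stands alone in the choroid plexus list at 3.95.

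Genes of telencephalic identity were lower in the high libraries. All 11 were lower and all 11 were called, with a median difference of -0.44 and no overlap in 4 of them. Emx1, a homeobox gene of the dorsal telencephalon, had 11.2, 7.79, 12.04 and 14.0 FPKM in the high libraries. The low libraries had 16.0, 16.1, 26.7, 22.4, 20.8 and 16.1 FPKM, a difference of -0.80 ± 0.180. The highest Emx1 level belonged to Tshr-/- library 5, the library highest in neocortical genes.

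The neuronal transcription factor Neurod2 differed by -0.57 ± 0.0730. Slc17a7, which encodes VGLUT1, had 308, 254, 326 and 337 FPKM in the high libraries and 352 to 466 FPKM in the low, a difference of -0.46 ± 0.0902. The level of these genes in a high library, as a percentage of the low libraries of its own genotype, had a median of 74.2% in Tshr-/- library 1 and 62.9% in Tshr-/- library 2. The medians were 76.4% in wild-type library 2 and 76.9% in wild-type library 5. The library with the most thalamic transcript thus had the least telencephalic transcript, whereas the other 3 lay close to each other.

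The same direction held, with smaller counts, in 2 hippocampal fields. Of 10 dentate granule cell genes 9 were lower and 4 were called lower, with a median of -0.30, beside 5.36% of all tested genes called lower. Rasl10a differed by -0.65 ± 0.122, the synaptic organizer C1ql2 by -0.63 ± 0.0820 and the lactase gene Lct by -0.55 ± 0.117, whereas Prox1, the transcription factor that sets granule cell identity, differed by -0.12 ± 0.104 and was not called. Of 9 CA1 genes 8 were lower and 4 were called lower, with a median of -0.33, beside the same 5.36%. Wfs1, the wolframin gene and a classical CA1 marker, had 21.3, 19.6, 32.5 and 28.4 FPKM in the high libraries. It had 23.5 to 46.4 FPKM in the low libraries, a difference of -0.56 ± 0.140, and Tshr-/- library 4 was the low library that overlapped the high class.

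The CA3 and CA2 list was balanced, with 6 genes higher and 7 lower and a median of -0.03. Pcp4, a calmodulin-binding peptide that CA2 shares with thalamus and other regions, was called higher at 1.48 ± 0.200. Its levels were 69.7, 71.8, 47.0 and 53.9 FPKM in the high and 13.8 to 30.4 FPKM in the low libraries. Rgs14, a signalling protein concentrated in CA2, was called lower at -0.45 ± 0.104. The 2 genes of the list that were called therefore differed in opposite directions.

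The 10 protein-coding genes with the largest negative differences, among those called and free of overlap, were Stra6, Emx1, Stpg1, Dmrta2, Bbc3, Ryr1, Slc29a4, Chst7, Rcor2 and Plekhg5. Their differences ran from -0.82 to -0.60. Stra6, the cellular uptake receptor for retinol, had 1.18, 1.24, 1.75 and 1.63 FPKM in the high libraries and 1.77, 2.90, 2.11, 2.73, 3.499 and 2.93 FPKM in the low, a difference of -0.82 ± 0.127. The gap between the classes was narrow, since wild-type library 2 and Tshr-/- library 3 differed by little. Dmrta2, a transcription factor of the developing cortex and hippocampus, differed by -0.69 ± 0.139, and Plekhg5, an activator of small GTPases, by -0.60 ± 0.0701. Stpg1 is uncertain because it overlaps the far more abundant Nipal3 on the opposite strand (15.3 and 15.6 FPKM in the high and low libraries).

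Inhibitory neuron genes did not move in a common direction. Of 14 genes 6 were higher and 8 lower, and 3 were called higher and 2 lower, beside 4.65% and 5.36% of all tested genes. Parvalbumin (Pvalb), a calcium buffer of fast-spiking interneurons, was higher by 0.52 ± 0.102, and Adarb2, an RNA-binding protein of interneurons from the caudal ganglionic eminence, by 0.44 ± 0.0908. The serotonin receptor gene Htr3a was lower by 0.39 ± 0.0693, with 5.19 to 5.69 FPKM in the high and 6.52 to 8.54 FPKM in the low libraries. The GABA-synthesizing enzyme Gad1 differed by 0.04 ± 0.0529.

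Receptor and channel subunits differed gene by gene. Of 12 tested GABA-A receptor subunits 9 were higher, with a median of 0.24. In this list 4 were called higher and none lower, beside 4.65% and 5.36% of all tested genes. The delta subunit (Gabrd), which forms extrasynaptic receptors in thalamus and dentate gyrus, had 12.4, 12.3, 10.7 and 12.8 FPKM in the high libraries. It had 7.20 to 8.72 FPKM in the low libraries, a difference of 0.62 ± 0.0714. Its usual partner in the thalamus, the alpha 4 subunit (Gabra4), differed by 0.48 ± 0.0669, and the gamma 1 subunit (Gabrg1) by 0.47 ± 0.0891, while the alpha 3 subunit (Gabra3) was not called at 0.52 ± 0.217. The alpha 5 subunit (Gabra5), typical of hippocampal pyramidal cells, differed by -0.23 ± 0.0812 and was not called.

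The pacemaker channel Hcn4, an HCN subunit found in thalamic relay neurons, had the largest difference among 12 calcium and HCN channel genes. Its levels were 3.26, 5.11, 1.44 and 2.72 FPKM in the high and 0.303 to 1.04 FPKM in the low libraries, a difference of 2.11 ± 0.230. The other HCN genes were not called. Of the calcium channels, the T-type subunit Cacna1h was lower by 0.54 ± 0.0605, the P/Q-type subunit Cacna1a by 0.37 ± 0.0391 and the R-type subunit Cacna1e by 0.28 ± 0.0703. All 3 were called and free of overlap, and no calcium channel was called higher.

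The 24 glutamate receptor genes were divided evenly, 12 higher and 12 lower. In each direction 2 were called, beside 4.65% and 5.36% of all tested genes called higher and lower. The metabotropic receptor Grm4, a presynaptic receptor, had 8.25, 11.6, 5.60 and 7.60 FPKM in the high and 2.21 to 5.84 FPKM in the low libraries, a difference of 1.07 ± 0.221. The AMPA subunit Gria4 differed by 0.51 ± 0.0901. The obligatory NMDA subunit Grin1 was lower by 0.31 ± 0.0616 and the kainate subunit Grik5 by 0.48 ± 0.0657. None of these 4 was free of overlap between the classes.

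**Figure D3:**
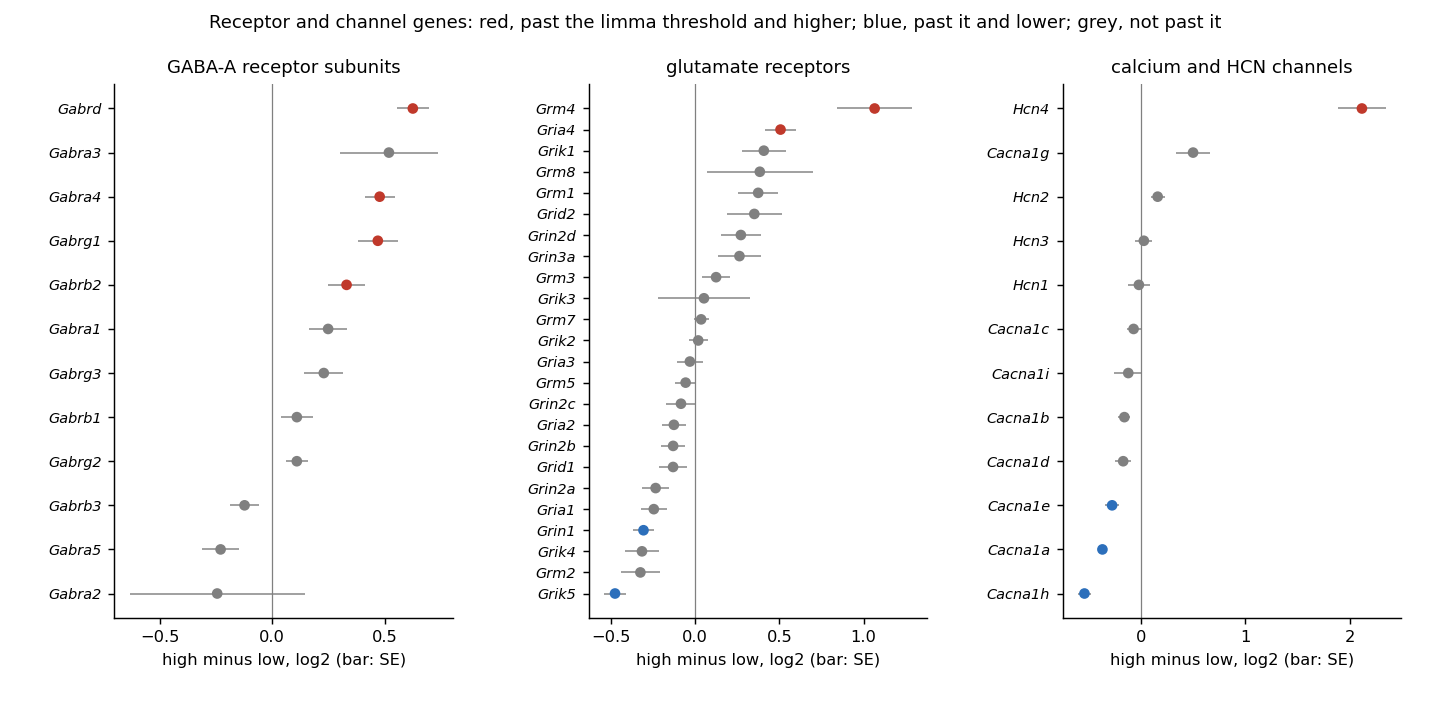
Difference between high and low libraries for each tested GABA-A receptor, glutamate receptor and calcium or HCN channel gene, on the log2 scale with its standard error as a bar; red and blue points were called higher and lower, grey points were not called. Hcn4 at 2.11 and Grm4 at 1.07 lie far to the right of the other genes, and Cacna1h at -0.54 is the lowest channel gene.

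The listed genes of the Wnt pathway, to which Tcf7l2 belongs, showed no common direction gene by gene. The list holds no Wnt ligand or Frizzled receptor, and some of those are given under other observations. The list mean, which includes Tcf7l2 and Lef1, was 0.17 to 0.48 in the high and -0.40 to -0.03 in the low libraries. These means are on the log2 scale, relative to the average over all libraries. Of 11 tested genes of the Wnt and TCF list 5 were higher and 6 lower, with a median of 0.00. In this list 3 were called higher and none lower, beside 4.65% and 5.36% of all tested genes. Those 3 were Tcf7l2, Lef1 and beta-catenin (Ctnnb1), the co-activator of both, which differed by 0.16 ± 0.0393. Axin2, a feedback target of the pathway, differed by -0.06 ± 0.0735, and the remaining factors of the family, Tcf7 and Tcf7l1, by -0.24 ± 0.149 and -0.03 ± 0.101. Tcf7l2 and Lef1 are also in the thalamus list, which names what the classes were chosen for. Their calls and their part in the list mean follow from that choice and are no result about the TCF/LEF family.

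Glial genes mostly differed by less than the thalamus genes, apart from Klk6 and Agt. All 18 myelin genes were higher in the high libraries with a median of 0.42, but only Klk6 and the tetraspanin Tspan2 were called. Klk6 had 2.73, 3.17, 2.42 and 2.31 FPKM in the high and 0.266 to 0.790 FPKM in the low libraries. Myelin basic protein (Mbp) had 305, 334, 402 and 313 FPKM in the high and 202 to 370 FPKM in the low libraries, a difference of 0.28 ± 0.169 with overlap between the classes. The range of Mbp in the low class was wide, with wild-type libraries 1 and 3 and Tshr-/- library 4 inside the high range.

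Of 15 astrocyte genes 10 were higher, and 7 were called higher and none lower, beside 4.65% and 5.36% of all tested genes. Angiotensinogen (Agt), which astrocytes of brainstem and diencephalon express strongly, had 18.5, 33.5, 16.3 and 13.3 FPKM in the high libraries. It had 4.52 to 8.75 FPKM in the low libraries, a difference of 1.505 ± 0.167. The GABA transporter GAT-3 (Slc6a11) differed by 0.79 ± 0.122, Itih3, a protein of the extracellular matrix, by 0.86 ± 0.142 and the water channel Aqp4 by 0.52 ± 0.109. Among the 5 genes that were lower, Gfap, Slc1a2 and Slc1a3 differed by -0.05 ± 0.110, -0.06 ± 0.0582 and -0.10 ± 0.0474, and none was called. Aldh1l1 and Aldoc were higher by 0.14 ± 0.0741 and 0.08 ± 0.0638 and were not called either.

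The choroid plexus did not follow the split. Of its 13 tested genes 12 were lower and none was called. The median was -0.44, with -1.33 in Tshr-/- and 0.61 in wild type. The Tshr-/- value rested on library 4, whose list mean relative to the average of all libraries was 3.95 in log2. Tshr-/- libraries 3 and 5 were at -0.54 and -0.16, between the high libraries 1 and 2 at -0.80 and 0.08. In wild type the classes overlapped too, with -0.54 and 0.39 in the high and -1.41 to -0.37 in the low libraries. Ttr had 2.77, 40.5, 4.51 and 84.1 FPKM in the high libraries and 25.3, 2189, 54.2, 0.830, 17.4 and 30.1 FPKM in the low libraries. The summed level of the list was 49.3 to 139 FPKM in the high libraries and 34.1 to 2636 FPKM in the low, where the upper value was Tshr-/- library 4. Without Tshr-/- libraries 4 and 5, a setting chosen after seeing the data, 554 genes were called higher and 682 lower.

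The 2 genotypes share no library, but the classes were set in both by the same thalamic genes, so the recurrence of those genes in both is fixed by the choice. In Tshr-/- 251 genes (1.62%) differed by 1 or more with no overlap between 2 high and 3 low libraries, and in wild type 218 genes did (1.41%). These counts were 100 and 55 with a pseudocount of 1, 745 and 614 with no filter on low values, 154 and 117 at a mean of at least 1 FPKM, and 142 and 98 among protein-coding genes. The Tshr-/- count was 499 without Tshr-/- library 1 and 384 without library 2, and the wild-type count was 405 without wild-type library 2 and 343 without library 5. Of the 174 such genes that were higher in the high Tshr-/- libraries, 149 (85.6%) had the same sign in wild type and 119 (68.4%) were also free of overlap there. Over all genes that were higher in Tshr-/-, 71.2% had the same sign in wild type and 30.5% were free of overlap there. The median difference of the 174 was 1.498 in Tshr-/-, where they were chosen, and 0.96 in wild type. Leaving out the 18 of them that belong to the thalamus, habenula, Zic or grouping gene lists, a count made after seeing the data, 131 of 156 (84.0%) had the same sign and 101 (64.7%) were free of overlap. Genes outside the lists that vary with the thalamic genes remain in this count.

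Genes chosen in wild type read much the same in Tshr-/-. Of 139 that were higher, 117 (84.2%) had the same sign and 82 (59.0%) were free of overlap, against 71.1% and 29.1% of all genes that were higher in wild type. Without the 18 genes of those lists the counts were 99 (81.8%) and 65 (53.7%) of 121. Genes chosen for being lower by 1 or more did not carry over to this degree. Of the 829 genes called lower between the classes only 8 differed by that much, so this choice leaves out most of them. Of 77 chosen in Tshr-/-, 46 (59.7%) were also lower in wild type, and of 79 chosen in wild type, 49 (62.0%) were lower in Tshr-/-, against 72.6% and 72.7% of all genes that were lower. Of the same genes 20.8% and 20.3% were lower without overlap in the other genotype, against 27.4% and 30.9% of all genes that were lower. The thalamus list had a median difference of 2.33 in Tshr-/- and 1.75 in wild type, and the telencephalon list -0.52 and -0.40.

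**Figure D4:**
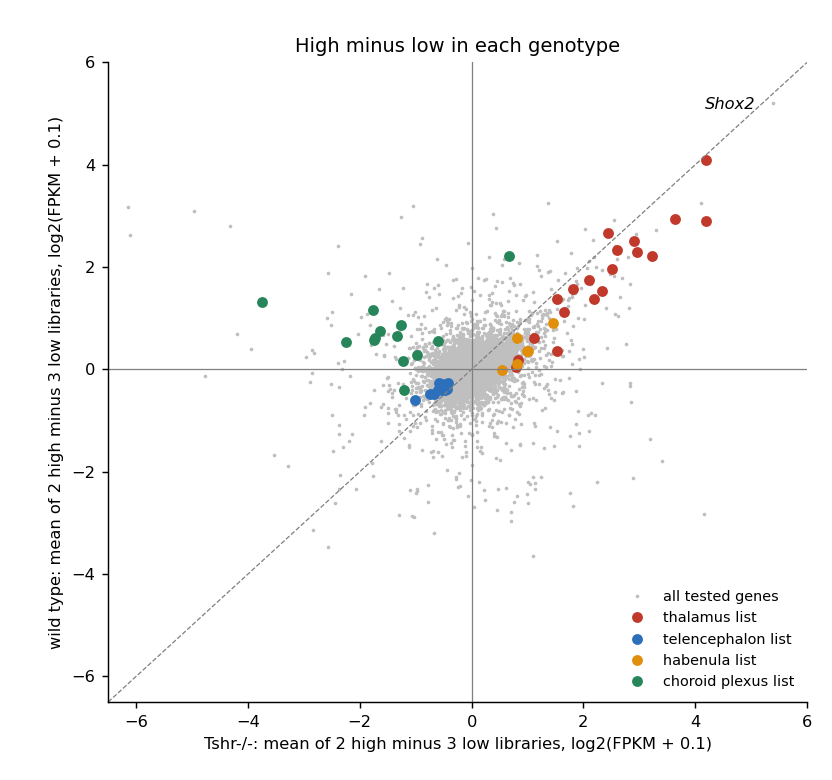
Mean of the 2 high minus mean of the 3 low libraries in Tshr-/- (horizontal) and wild type (vertical) for each tested gene, in log2(FPKM + 0.1), with 4 lists coloured and a dashed line at equal values. Thalamus genes lie in the upper right, mostly a little below the line, and telencephalon genes lie in the lower left near the origin. Choroid plexus genes are mostly lower in Tshr-/-, where library 4 stands apart in the low class, and higher in wild type.

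Whether the difference between classes itself differed between genotypes was tested with the interaction of genotype and class. It was past the threshold in 0 of 15471 genes (0.0%) by limma on log2 FPKM and in 0 by limma's voom on the rebuilt reads, with 530 and 489 genes at an unadjusted p below 0.05. Of the 19 thalamus genes 4 were at an unadjusted p below 0.05, none past the adjusted threshold. The nuclear receptor gene Rora, for example, differed by 2.33 in Tshr-/- and 1.53 in wild type (interaction, limma adjusted p = 0.9999). The difference between genotypes in the amount of thalamic transcript in the high class was therefore not resolved gene by gene at this number of libraries.

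With class as a covariate, the genotype term of limma called 76 genes higher and 345 lower in Tshr-/- (0.491% and 2.23%), against 0 and 2 without the class. The classes were set on thalamic transcripts, and the sources used here do not state whether they were set within each genotype. Penk, the enkephalin precursor, had 9.93 and 9.58 FPKM in the high and 9.53, 8.18 and 8.86 FPKM in the low Tshr-/- libraries. In wild type it had 16.8 and 13.7 FPKM in the high and 18.7, 17.2 and 17.5 FPKM in the low libraries, and the genotypes did not overlap. The genotype difference of Penk was -0.85 ± 0.0858 (limma adjusted p = 0.00463), and its difference between classes was -0.05 ± 0.0876. Cyp26b1, which degrades retinoic acid, differed between genotypes by -1.49 ± 0.133 (limma adjusted p = 0.00237), with 1.27 to 2.41 FPKM in Tshr-/- and 3.59 to 5.52 FPKM in wild type. The dentate gene C1ql2 differed by -0.83 ± 0.0804 (limma adjusted p = 0.00391).

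These genotype calls included hippocampal lists that also differed between the classes. In Tshr-/- 5 of 11 telencephalon, 5 of 10 dentate granule cell and 3 of 9 CA1 genes were called lower, and 9 of 15 activity-dependent genes such as Arc and Fos. No thalamus gene was called for genotype, but 19 of 19 had a higher fitted mean in Tshr-/- at equal class, by a median of 0.42. The 2 classes do not record the amount of thalamic transcript, which was larger in the high Tshr-/- than in the high wild-type libraries. With the mean of the thalamus list as covariate in place of the classes, 10 genes were called higher and 22 lower in Tshr-/-. Quantile normalization gave 82 and 155 calls, and voom on the rebuilt reads 197 and 435, so the share of higher among the calls moved from 18.1% to 34.6% and 31.2%. With a covariate for the choroid plexus list beside the class, 48 were called higher and 146 lower. Both covariates were chosen after seeing the data.

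The count also rested on single libraries. Without wild-type library 1 the genotype term called 17 genes in all, without wild-type library 5 it called 25, without wild-type library 2 it called 48, and without Tshr-/- library 2 it called 66. Without Tshr-/- library 1 it called 95 and without wild-type library 3 it called 99, while without wild-type library 4 it called 698 and without Tshr-/- library 5 it called 269. The number of genes called for genotype at equal class was therefore not stable. The differences of Penk and Cyp26b1 kept their sign in every setting run. So did that of Slc17a7, which was not called for genotype (-0.17 ± 0.0884, limma adjusted p = 0.331). A kept sign is a weaker measure than a call.

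**Figure D5:**
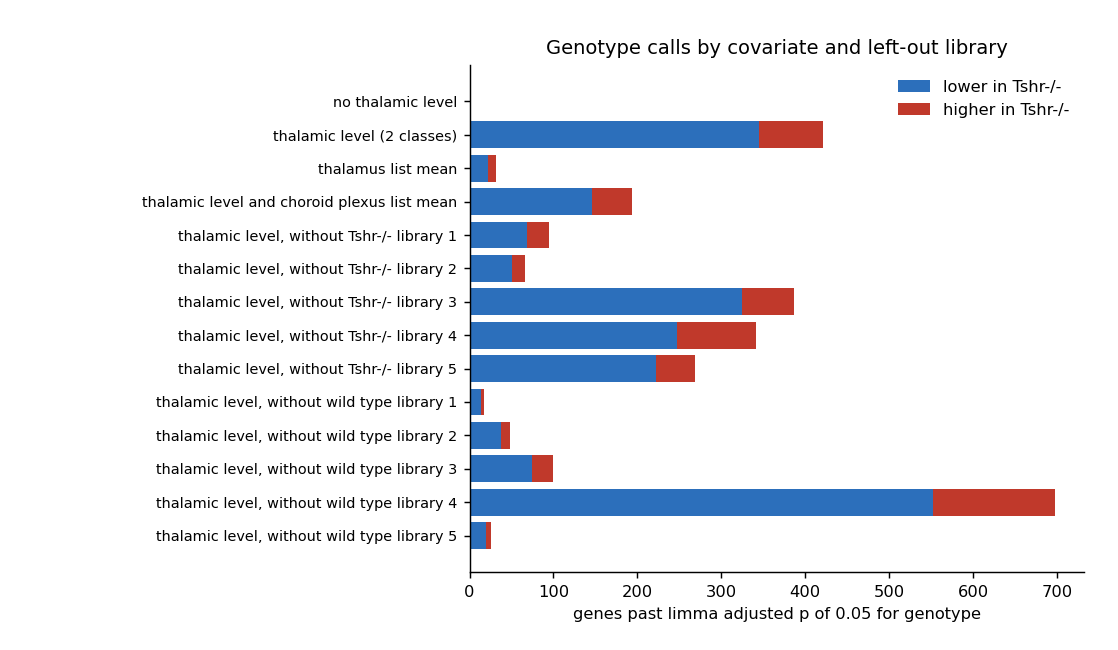
Number of genes called for genotype by limma under different covariates and with each library left out, as stacked bars from 0, blue for lower and red for higher in Tshr-/-. The bar for the 2 classes reaches 421 genes, the bar without class 2, the bar for the thalamus list mean 32, and the bars with a library left out run from 17 to 698.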

How the data were processed

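Hippocampal mRNA of 10 mouse libraries was read from the authors' deposited table of FPKM values for 52636 genes. Per the submitters' processing notes, alignment was to mm10 by HISAT2 2.0.5 and counting by featureCounts 1.5.0-p3 (annotation release: not given in the sources used here). All 10 libraries had an equal median ratio of deposited FPKM (1.004), so scaling by median ratios changes nothing. Multiplied by gene length, 100% of the FPKM values above 0 came out as whole reads (tolerance 0.01 of a read), 23899650 to 33529811 per library.

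High and low classes were given as a list of libraries that had been grouped on their measured transcript levels. The library names themselves carry no class. With class and genotype as terms, limma 3.58.1 in R 4.3.3 (empirical Bayes with a mean-variance trend) was fitted on log2(FPKM + 0.1). The fit used the 15471 genes with a mean of at least 0.5 FPKM, with Benjamini-Hochberg adjustment over all of them and a threshold of 0.05. The steps were tested on simulated data. The members and the gene lists were chosen with earlier results of these data known.

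Genes named were Zic1, Zic4 and Calb2; the 10 largest differences in each direction among 710 protein-coding genes with a mean of at least 1 FPKM that were called and did not overlap; up to 4 members with the largest difference in each list described; and Tcf7l2, Prkcd, Slc17a6, Lef1, Rora, Slc17a7, Prox1, Wfs1, Mbp, Ttr, Tshr, Penk and Cyp26b1. A few genes that this rule takes are not reported here. Other genes named were chosen after their values were seen. Replicate numbers 1 to 5 occur in both genotypes, and no source used here ties equal numbers to a shared litter or day.

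Alternatives were pseudocounts of 1 and 0.01, other filters on low values, median-ratio and quantile scaling, voom on the rebuilt reads, the replicate number as a block, protein-coding genes alone, no genotype covariate, each genotype alone, and each library left out.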

Additional observations from a re-analysis of the deposited data

Results flagged for a closer look

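For 81 named genes, each class was checked for a library far from the others, that is 162 groups of 4 or 6 libraries, and 21 values were far from the rest of their class. The cutoffs flag about 1 in 20 groups only where values are independent and normally distributed. These were FPKM values without log transformation, many of the genes vary together, and each class mixes both genotypes. That rate is therefore no baseline for the 21 values. The flagged values were unevenly spread over libraries, with 10 from Tshr-/- library 4, 5 from Tshr-/- library 2 and 3 from Tshr-/- library 5. Tshr-/- library 3 and wild-type libraries 1 and 5 gave 1 each.

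Tshr-/- library 4 was the highest of the low libraries in choroid plexus genes, with Ttr at 2189 FPKM, Kl at 10.6 FPKM, Aqp1 at 8.40 FPKM and Otx2 at 3.51 FPKM. It was also the highest low library in Zic1 at 13.5 FPKM, Zic2 at 10.7 FPKM and Zic4 at 1.37 FPKM. Klk6 at 0.790 FPKM and the CA2 gene Map3k15 at 1.67 FPKM were high there, and Cacna1g at 6.58 FPKM was the lowest of the low class. Its thalamus list mean was -0.81 relative to the average of all libraries, within the low class.

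Tshr-/- library 2 was the highest of the high libraries in Calb2 at 68.9 FPKM and in Zic2 at 12.2 FPKM, and in the habenula genes Gpr151 at 11.2 FPKM, Gng8 at 4.46 FPKM and Chrna3 at 2.70 FPKM. Tshr-/- library 5 was the highest of the low libraries in Gpr151 at 2.12 FPKM, Ramp3 at 12.98 FPKM and Gria4 at 10.9 FPKM. Gbx2 at 0.227 FPKM was high in Tshr-/- library 3, and Dmrta2 at 3.35 FPKM in wild-type library 1, each against the other low libraries. Aqp1 at 0.290 FPKM was high in wild-type library 5 among the high libraries.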

How the results depend on the processing

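The 19 thalamus genes kept a positive median and the 11 telencephalon genes a negative median in all 23 alternatives. Of 1860 recomputed differences of 82 named genes, 9 changed sign. The thalamus sign follows from how the classes were chosen, and many of the named genes were taken for large differences in this fit. Signs kept on reprocessing the same libraries are therefore no further evidence for the split. Median-ratio scaling, which changed nothing, is counted among these alternatives. The counts of called genes were less steady, and the number of libraries, 2 to 3 per genotype and class, limits them. In the following pairs the count of genes higher in the high libraries stands before the count lower. The fit of classes gave 719 and 829, no filter on low values 458 and 446, no genotype covariate 326 and 212, the Tshr-/- libraries alone 28 and 15 and the wild-type libraries alone 4 and 0. Leaving out each library gave 287 to 814 and 321 to 1083. The interaction count was 11 without a filter on low values and 0 to 2 with each library left out.

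With the replicate block, which fits the replicate number, 3 genes were called higher and 0 lower between classes, and 22 higher and 103 lower for genotype. Numbers 2, 3 and 4 have the same class in both genotypes. Under the block the class difference therefore rests on numbers 1 and 5 alone, and Tshr-/- libraries 2 and 4 do not enter it. Deviations of same-numbered libraries from their genotype means correlated at -0.06, 0.30, 0.08, 0.17 and -0.07 for numbers 1 to 5. These values are mixed with class. With class also fitted the correlations were 0.19, -0.17, -0.11, 0.03 and 0.17. The numbers were not taken as pairs. Under the block the differences of Aqp1 (0.20), Chrna3 (-0.43), Gpr151 (-0.52) and Ttr (1.13) changed sign, and the list medians became -0.27 for habenula, 0.32 for hypothalamus and 0.00355 for astrocytes.

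For genotype, calls higher and lower in Tshr-/- were 26 and 81 with no filter, 82 and 155 after quantile normalization, 197 and 435 by voom, 131 and 484 for protein-coding genes alone, and 3 to 146 and 14 to 552 with each library left out. Settings chosen after seeing the data gave 8 and 32 without Tshr-/- libraries 4 and 5, 10 and 22 with the thalamus list mean, 48 and 146 with class and the choroid plexus list mean, and 0 and 2 with no class. The genotype difference of Tcf7l2 turned to -0.18 with the thalamus list mean, which contains the gene.

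The thalamus median was 1.51 with a pseudocount of 1 and 2.27 in the Tshr-/- libraries alone. In those libraries the hypothalamus median was 0.23, the interneuron median -0.24, the astrocyte median 0.23, the GABA-A receptor median 0.33 and the Penk difference 0.14. The interneuron median was -0.10 without Tshr-/- libraries 4 and 5 and -0.20 to -0.081 with each library left out, and the hypothalamus median -0.036 to 0.32. Ttr differed by 0.41 without Tshr-/- libraries 4 and 5, by 1.32 in wild type alone and by -2.60 to 0.11 with each library left out (0.11 without Tshr-/- library 1), and Penk by -0.098 to 0.053 (0.053 without wild-type library 5). Genes 1 or more apart and not overlapping within Tshr-/- and wild type numbered 100 and 55 with a pseudocount of 1, 745 and 614 with no filter, 154 and 117 at a mean of at least 1 FPKM, and 142 and 98 among protein-coding genes. With each library left out they numbered 252 to 499 and 202 to 405. The cause of these changes was not tested.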

Other observations

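The genes that differed by 1 or more without overlap in both genotypes reach beyond the lists above. There were 76 that were higher, 43.7% of the genes chosen in Tshr-/- and 54.7% of those chosen in wild type, and 67 of them are protein-coding. Of the 76, 22 were in a list. The genes named here were chosen after their values were seen. Homeobox genes of the Iroquois family, which pattern the diencephalon, were among them. Their means over all libraries were 0.697 FPKM for Irx2, 0.975 FPKM for Irx1 and 0.865 FPKM for Irx3. The gene of the secreted C1q-related protein C1ql4 had a mean of 0.808 FPKM. At such levels these genes passed the filter of 0.5 FPKM only through the class in which they were higher, so no difference is given for them.

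The ligand gene Wnt9b, the receptor gene Fzd10 and Sfrp5, which encodes a secreted Wnt antagonist, had means of 0.823, 0.727 and 0.733 FPKM. Trhr2, a receptor for thyrotropin-releasing hormone, had a mean of 0.677 FPKM and the peptide receptor gene Vipr2 0.855 FPKM. These genes too passed the filter only through the class in which they were higher, and no difference is given. The ligand gene Wnt3 was higher by 2.20 in Tshr-/- and 1.31 in wild type, and the adrenergic receptor gene Adra1b by 1.96 and 1.59. Unc13c was higher by 1.88 and 1.98, Syt9 by 2.34 and 1.94, and Rims3 by 1.85 and 1.49.

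Only 8 genes were lower by 1 or more without overlap in both genotypes, and 0 of them are protein-coding. They are 70 to 497 bases long and include Mir7087, Mir7b and Snord71. By reads rebuilt from FPKM, they had 0 to 6 reads in each high and 1 to 16 in each low library. A gene at this level is tested mainly through the class in which it is higher, so no difference is given for them.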
